A study of Mus musculus with 12 samples.

Results

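The 10 genes described here code for Notch ligands (Dll4, Dll1, Jag1, Jag2), Notch receptors (Notch1, Notch2, Notch3) and genes that Notch signalling is known to switch on (Hes1, Hey1, Nrarp). They were chosen by name, with earlier results of these data known, from the 27179 genes counted in the series. All 10 passed the filter on low counts that left 19398 genes for testing. RNA was sequenced from sorted mouse thymic epithelial cells (TECs), the stromal cells that support and select developing T cells. Cortical cells (cTECs) were sorted as CD45- TER-119- CD31- EpCAM+ MHC class II+ Ly51+ UEA1-, and medullary cells high in MHC class II (mTEChi) as UEA1+ Ly51-.

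Each cell type was taken from C57BL/6 control mice and from mice lacking HOIL in their TECs, with 3 libraries in each of the 4 groups. HOIL is a subunit of the linear ubiquitin chain assembly complex, which acts in NF-kB signalling, and its gene is Rbck1. All groups carried the floxed Hoil allele. The control genotype is given as Foxn1cre+/+ Hoillox/lox and is labelled wild type, and the deficient genotype is Foxn1creT/+ HOILlox/lox, in which Cre under Foxn1 control acts in TECs and their precursors. No treatment was given, and the age of the mice is not given in the sources used here. Replicate 3 of both HOIL-deficient groups was female and the other 10 libraries were male. The labels do not say that the replicates came from separate mice, so the tests measure the spread between these libraries, which may be technical.

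Notch is a receptor read by contact between neighbouring cells. A ligand of the Delta-like or Jagged family on one cell pulls on the receptor of the next, ADAM and gamma-secretase proteases then release the intracellular domain, and this domain joins the DNA-binding protein RBPJ and a Mastermind coactivator to switch on genes such as the HES and HEY repressors. In the thymus, Dll4 on cTECs signals to Notch1 on incoming progenitors and commits them to the T cell lineage, and Notch signalling also acts within the epithelium, where it takes part in forming medullary progenitors. Blood vessels use the same pathway, with Dll4 and Notch4 known from endothelium and Notch3 from pericytes.

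Because HOIL acts upstream of NF-kB and the target genes are read through RBPJ, the promoters of the genes were searched for both factors' motifs. The RefSeq table (GRCm38.p6) held 9 promoter windows for 8 of the 10 genes, without Hes1 and Hey1, and each window was the 250 bases before an annotated start. The RBPJ core TGGGAA, searched on both strands, was in 0 of the 9 windows, and 21.6% of all 32851 windows of that length held it. With 9 windows this cannot show a lower share, and Nrarp was the only target gene with a window. The NF-kB consensus, named here by its factor because it holds degenerate letters, was in 4 of the 9, against 7.25% of all windows; the search covered both strands, and a hit matching on both strands at one position was taken as one position. Those with it were Dll4, Notch2, Nrarp and 1 of the 2 windows of Dll1. The GC content of these windows was 65.6% for Dll4, 72% for Notch2, 61.2% for Nrarp and 64% for Dll1, against a median of 52.4% over all windows. In the windows without the NF-kB consensus it was 56% for Dll1, 57.2% for Jag1, 66% for Notch1, 68.8% for Notch3 and 87.2% for Jag2. The 5 genes with a window that changed without HOIL in cTECs or mTEChi are shown, since the results turn on them. Each is printed 5′ to 3′ on the gene's own strand, with capitals for the NF-kB consensus. They lie at chr2:119325534-119325783 on the plus strand for Dll4, chr2:137116521-137116770 on the minus strand for Jag1, chr2:26503823-26504072 on the minus strand for Notch1, chr3:98013288-98013537 on the plus strand for Notch2 and chr2:25180508-25180757 on the plus strand for Nrarp.
Dll4: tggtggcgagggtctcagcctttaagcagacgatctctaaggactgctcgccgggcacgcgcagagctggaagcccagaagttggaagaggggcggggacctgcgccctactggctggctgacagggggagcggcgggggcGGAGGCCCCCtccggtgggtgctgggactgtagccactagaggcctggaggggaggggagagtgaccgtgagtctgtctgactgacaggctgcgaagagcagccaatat
Jag1: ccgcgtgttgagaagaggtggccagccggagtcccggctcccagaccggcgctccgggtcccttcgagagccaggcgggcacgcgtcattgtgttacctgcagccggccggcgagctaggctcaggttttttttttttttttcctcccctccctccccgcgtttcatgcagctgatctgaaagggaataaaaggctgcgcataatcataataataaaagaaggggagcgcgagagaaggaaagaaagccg
Notch1: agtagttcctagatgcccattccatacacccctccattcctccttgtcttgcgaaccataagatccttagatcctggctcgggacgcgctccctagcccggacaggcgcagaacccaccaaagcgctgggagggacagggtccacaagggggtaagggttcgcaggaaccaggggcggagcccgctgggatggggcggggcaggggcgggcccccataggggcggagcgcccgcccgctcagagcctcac
Notch2: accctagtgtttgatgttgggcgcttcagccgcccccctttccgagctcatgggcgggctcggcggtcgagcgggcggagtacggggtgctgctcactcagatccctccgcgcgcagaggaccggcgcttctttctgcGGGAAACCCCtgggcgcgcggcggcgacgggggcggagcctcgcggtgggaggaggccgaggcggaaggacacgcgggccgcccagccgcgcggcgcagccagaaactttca
Nrarp: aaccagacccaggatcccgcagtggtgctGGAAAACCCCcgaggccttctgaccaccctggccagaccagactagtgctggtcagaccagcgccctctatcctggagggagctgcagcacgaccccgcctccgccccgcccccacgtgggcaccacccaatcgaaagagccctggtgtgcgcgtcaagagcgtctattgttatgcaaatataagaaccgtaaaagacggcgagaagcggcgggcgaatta
The match lay 109 to 100 bases before the start in Dll4, 112 to 103 in Notch2 and 221 to 212 in Nrarp. These are letters in a window and not measured binding sites.

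The libraries held 7941217 to 14274333 counts. Rbck1, the targeted gene, was at 183 to 236 CPM (counts scaled to the library's total) in control cTECs and 22.0 to 33.0 in deficient ones, and at 108 to 128 and 10.9 to 23.3 in mTEChi. It fell by 3.13 in cTECs, as a log2 fold change (SE 0.271, adjusted p = 2.8e-05) and by 2.99 in mTEChi (SE 0.272, adjusted p = 4.5e-05), in the direction of the labels. Tests throughout are edgeR quasi-likelihood tests over all 19398 genes with Benjamini-Hochberg adjustment, n = 3 libraries per group, and a gene is said to have risen or fallen where the adjusted p was under 0.05. The sorted populations carried their defining markers: 8 cTEC markers such as Psmb11 and Prss16 summed to 49560.3 to 63078 CPM in control cTECs and 2752 to 3279.9 in control mTEChi, and 8 mTEC markers such as Aire summed to 171 to 225 and 1635 to 2386.

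Markers of other cells also moved with genotype. In cTECs, 16 of 21 thymocyte markers fell without HOIL, and their summed level went from 1558 to 5041 CPM in controls, highest in replicate 1, to 615 to 1213. Endothelial markers rose in 15 of 17 cases, from 45.2 to 93.3 CPM, with Erg at 0, to 227 to 638. Fibroblast and pericyte markers rose in 10 of 16 cases, from 503 to 2032 CPM to 3730.2 to 5368, and 7 of the 8 cTEC markers fell, to a sum of 28814 to 31095. All 6 adipocyte markers tested, of 7 listed, rose in cTECs, from a sum of 20.4 to 47.1 CPM, with Plin1 and Lep at 0, to 261 to 435, with Lep at 0. Schwann cell markers rose there in 5 of 7 cases, from 45.7 to 48.2 CPM to 129 to 156. In mTEChi, 12 of 17 endothelial markers rose, from a sum of 137 to 185 CPM to 334 to 889. Fibroblast and pericyte markers rose in 6 of 16 cases, from 446 to 513 CPM to 991 to 1288, while 6 of 8 tuft cell markers fell, from 281 to 463 CPM to 156 to 185. Schwann cell markers rose in 3 of 7 cases in mTEChi, from 89.6 to 99.1 CPM to 109 to 157, and 1 of 6 adipocyte markers rose, with sums of 889 to 1971 CPM in controls and 1021 to 1421 without HOIL. Thymocyte markers in mTEChi summed to 258 to 355 CPM in controls and 364 to 534 without HOIL. Of the 8 cTEC markers, 3 rose and 0 fell in mTEChi, from a sum of 2752 to 3280 CPM to 3365 to 4585. Of the 8 mTEC markers, 2 rose and 1 fell in cTECs, and 1 rose and 1 fell in mTEChi. Of 5 general TEC markers such as Epcam, 0 were called in cTECs. Their sums there were 14315 to 15689 CPM in controls and 12424 to 14488 without HOIL. In mTEChi 2 of these 5 rose and 0 fell, from a sum of 3220 to 3981 CPM to 4191 to 4330. Control mTEChi also had more mitochondrial counts, 3.19 to 8.93% of the total and highest in replicate 1, against 1.71 to 1.91% without HOIL, and more counts of the nuclear RNA Malat1, 3.29 to 5.13% against 0.713 to 0.983%. In bulk samples such as these, fewer cells of a type and less RNA per cell cannot be told apart. The part of these cells in the changes below was not tested.

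**Figure D1:**
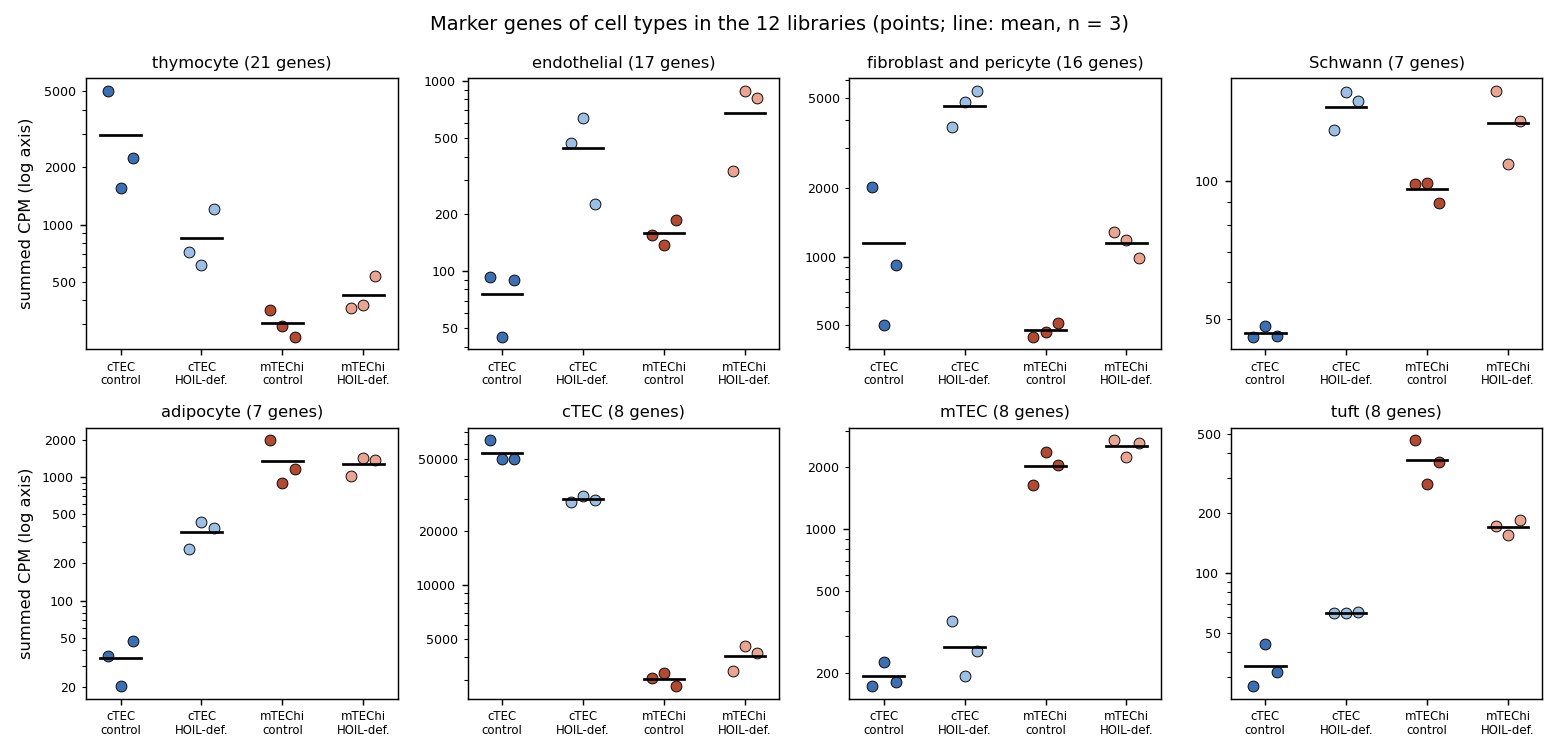
Summed CPM of the marker genes of 8 cell types (log axes that differ between panels); each point is 1 library and each line the mean of 3. The endothelial and the fibroblast and pericyte sums are higher in all HOIL-deficient libraries than in the controls of the same cell type, and the cTEC marker sum in HOIL-deficient cTECs, 28814 to 31095, is below that of every control cTEC library.

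Of the 10 Notch genes, 3 changed without HOIL in cTECs, where Dll4 and Notch2 fell and Nrarp rose. That is 3 of 10 beside 12.1% of all genes tested. In mTEChi 5 of 10 changed, beside 19.9% of all genes: Dll4, Jag1, Notch1 and Hes1 fell and Hey1 rose. The median log2 change of the 10 was -0.1 in cTECs and -0.77 in mTEChi, against -0.02 and -0.03 over all genes. In CPM, without the tests' scaling, control and deficient libraries did not overlap for 8 of the 10 genes in cTECs (27.8% of all genes). In mTEChi this held for 6 of the 10 (44.5% of all genes). The HOIL effect itself differed between the cell types for 3 of the 10, beside 9.84% of all genes: Jag1 and Hes1 had the lower effect in mTEChi (3.87% of all genes) and Hey1 the higher (5.97%). Between the control cell types 7 of the 10 differed, where 64.2% of all genes did, 3 higher in mTEChi and 4 lower, and between the HOIL-deficient cell types 6 of the 10, all lower in mTEChi, where 48.4% of all genes differed. Libraries did not overlap between the control cell types for 8 of the 10, 3 higher and 5 lower in mTEChi (71.2% of all genes, 39.6% higher and 31.6% lower), and between the deficient ones for 6, all of them lower (57.9% of all genes, 32.8% higher and 25% lower). The comparisons of genotype and of cell type share libraries and are not independent of each other.

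**Figure D2:**
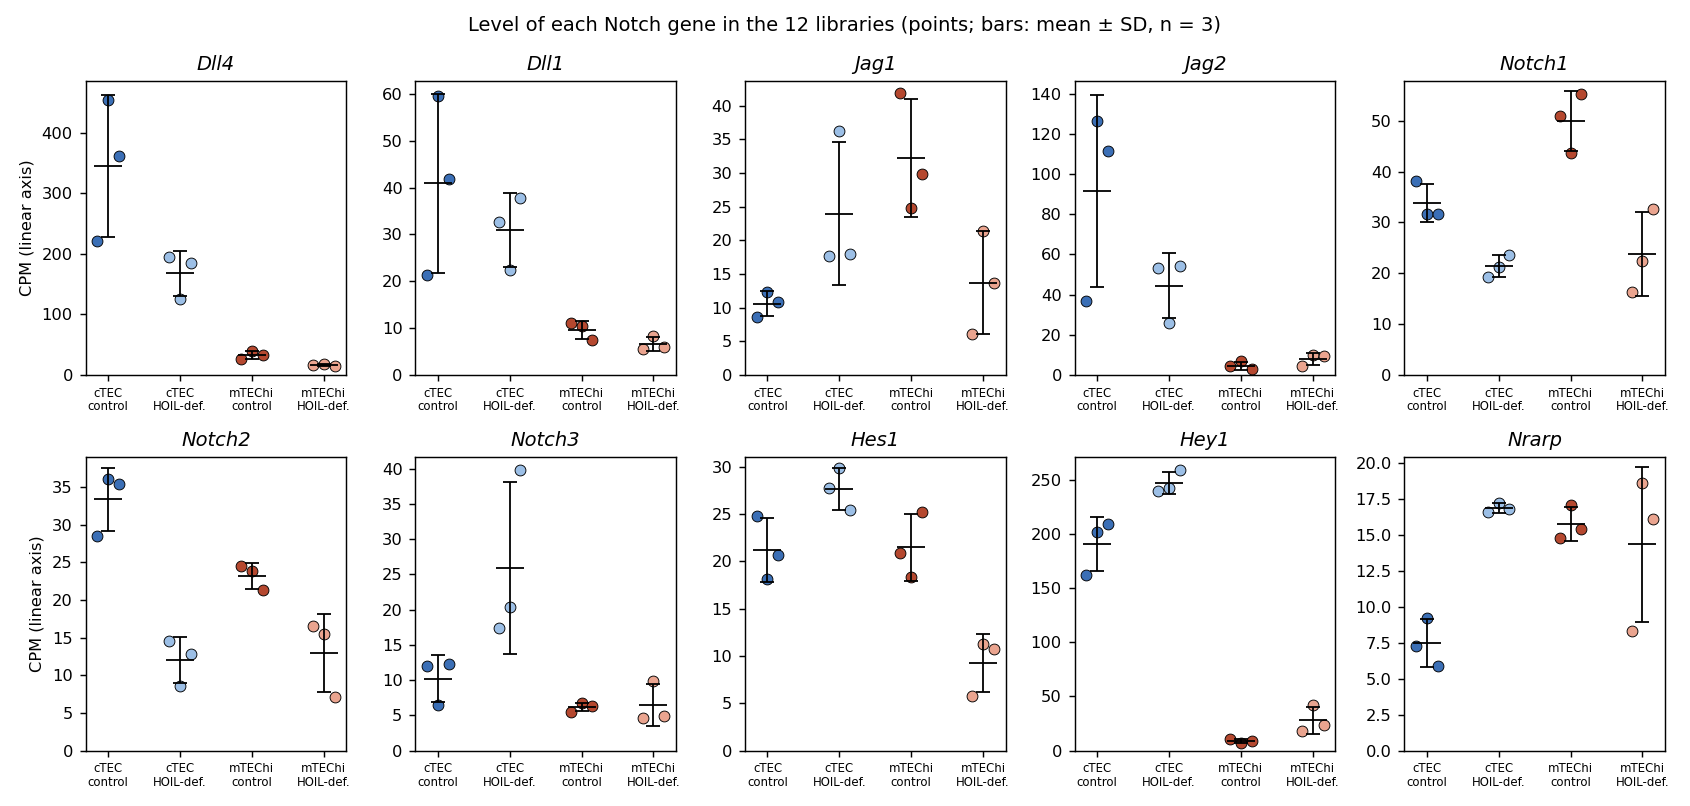
Level of each of the 10 genes in CPM (linear axes from 0 that differ between panels) in the 12 libraries; each point is 1 library and the bars give the mean ± SD of 3. Dll4 lies at 221 to 454 CPM in control cTECs and at 126 to 194 in HOIL-deficient cTECs, and Hey1 is at 162 CPM or more in every cTEC library and at or below 42.0 in every mTEChi library.

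Dll4, the ligand that commits thymic progenitors to the T lineage, was the most abundant of the 4 ligands in every cTEC library and fell without HOIL in both cell types. Its level in control cTECs was 221, 454 and 361 CPM in replicates 1 to 3, and without HOIL it was 194, 126 and 184 CPM. Every deficient library was below every control, and the log2 fold change was -1.13 (SE 0.236, adjusted p = 0.0081). In mTEChi the control libraries had 25.8, 39.7 and 32.6 CPM of Dll4 and the deficient libraries 17.1, 17.9 and 14.7. These groups did not overlap either, and the change was -1.04 (SE 0.246, adjusted p = 0.01). The mTEChi call was lost when only male libraries were used (adjusted p = 0.055) and with limma-voom (adjusted p = 0.053). The 2 changes differed by 0.09 (SE 0.339, adjusted p = 0.94), so a difference in the HOIL effect between the cell types was not detected. The log2 difference of Dll4 between mTEChi and cTECs was -3.31 in controls (SE 0.257, adjusted p = 1.2e-07) and -3.22 without HOIL (SE 0.258, adjusted p = 2.2e-07), lower in mTEChi in each case. Of the 8 cTEC markers, 7 fell and 0 rose without HOIL in cTECs, with a median log2 change of -1. In mTEChi 3 rose and 0 fell, with a median of 0.48. Their part in the Dll4 values was not tested. Dll4 (Entrez 54485, chr2:119325784-119335666 in GRCm38.p6) overlaps the counted gene Gm14207, whose mean level was 107 ± 22.6 CPM (SD) in control cTECs and 78.5 ± 12.4 in deficient cTECs. In mTEChi Gm14207 had 40.3, 25.9 and 23.8 CPM in controls and 16.3, 14.6 and 21.2 without HOIL. These mTEChi levels were near those of Dll4 itself, and the libraries did not overlap between genotypes. No source used here gives the strand setting of the counting, and reads in the overlap cannot be told apart.

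Dll1, the second Delta-like ligand, had no call for HOIL in either cell type. Control cTECs had 21.4, 59.6 and 41.8 CPM and deficient cTECs 32.7, 22.3 and 37.8, with overlapping libraries (log2 fold change -0.49, SE 0.335, adjusted p = 0.38). In mTEChi the levels were 11.1, 10.3 and 7.41 CPM in controls and 5.52, 8.22 and 5.88 without HOIL (-0.63, SE 0.354, adjusted p = 0.23). Dll1 (Entrez 13388, chr17:15367354-15376932) differed by cell type, with lower values in mTEChi. The log2 difference was -1.98 in controls (SE 0.352, adjusted p = 0.00024) and -2.12 without HOIL (SE 0.356, adjusted p = 0.00021). Such a difference, in either direction, was called for 64.2% of all genes in controls and 48.4% without HOIL.

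Jag1, a Jagged ligand, had changes of opposite sign in the cell types. Control cTECs had 8.56, 12.3 and 10.8 CPM of Jag1 and deficient cTECs 17.6, 36.2 and 18. All deficient cTEC libraries lay above all controls, but the change did not pass (1.10 on the log2 scale, SE 0.419, adjusted p = 0.11). In mTEChi the controls had 41.9, 24.8 and 29.9 CPM and the deficient libraries 6.12, 21.4 and 13.7, and Jag1 fell by 1.31 (SE 0.415, adjusted p = 0.039). Here all deficient libraries lay below all controls, with replicate 1 the lowest at 6.12. The mTEChi call was lost with males only (adjusted p = 0.099) and without control replicate 1 (0.17), control replicate 3 (0.072), deficient replicate 1 (0.12) or deficient replicate 3 (0.09), within a range of adjusted p from 0.0073 to 0.17 over 14 alternatives. The HOIL effect in mTEChi minus that in cTECs was -2.41 (SE 0.589, adjusted p = 0.022), and it lost its call with males only (adjusted p = 0.052) and without control mTEChi replicate 1 (0.057). Control mTEChi had more Jag1 than control cTECs, by 1.72 (SE 0.423, adjusted p = 0.0027), while without HOIL the difference was -0.69 (SE 0.412, adjusted p = 0.19), and that gained a call without deficient mTEChi replicate 2 (-1.15, adjusted p = 0.044). Jag1 has Entrez number 16449 and lies at chr2:137081451-137116520.

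Jag2, the other Jagged ligand, had 36.9, 126 and 112 CPM in control cTECs and 53.2, 25.7 and 54.4 in deficient cTECs. Control replicate 1 lay among the deficient libraries, and the change of -1.13 did not pass (SE 0.428, adjusted p = 0.1). Leaving out that library gave -1.5 with adjusted p = 0.017. It was the control cTEC library highest in thymocyte markers (5041 CPM), in fibroblast and pericyte markers (2032) and in cTEC markers (63078.5). The part of these in the Jag2 values was not tested. In mTEChi Jag2 was at 4.30, 6.72 and 2.78 CPM in controls and 4.44, 9.71 and 9.25 without HOIL (0.70, SE 0.475, adjusted p = 0.33). The difference between the 2 effects was 1.83 (SE 0.638, adjusted p = 0.084), and 2.21 with adjusted p = 0.018 without control cTEC replicate 1. Jag2 (Entrez 16450, chr12:112907803-112929812) was lower in mTEChi than in cTECs, with a log2 difference of -4.21 in controls (SE 0.498, adjusted p = 6.9e-06) and -2.38 without HOIL (SE 0.456, adjusted p = 0.00062).

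To compare genes with each other, counts were also divided by counted gene length (RPKM, the CPM per kilobase). Dll4 led the ligands of control cTECs with 100.1 ± 34.1 RPKM (SD, n = 3), followed by Jag2 with 22.6 ± 11.8, Dll1 with 11.9 ± 5.58 and Jag1 with 1.93 ± 0.346. Jag2 and Dll1 were not apart beyond their spread, and the other neighbours were. The summed level of the 4 ligands was 137 ± 51.5 RPKM with HOIL and 73.0 ± 14.9 without it in cTECs, and 19.3 ± 1.48 with HOIL and 11.1 ± 2.58 without it in mTEChi. Dll4 made up 71.5 to 79.1% of that sum in control cTECs and 65.2 to 68.5% in deficient cTECs. Jag1 made up 1.23 to 1.93% and 3.91 to 11.8%, so the libraries of both genes did not overlap between genotypes in their share. In mTEChi Dll4 held 38.6 to 55.6% of the sum in controls and 37.4 to 56.4% without HOIL, and Jag1 21.8 to 39.3% and 12.7 to 28.0%, with overlap in both. These sums and shares leave out Dll3, which is among the other pathway genes below. Dll3 had 5.96 ± 2.59 RPKM in control mTEChi and 11.1 ± 2.22 in deficient mTEChi, where Dll4 had 4.80 ± 0.483. Its libraries did not overlap between these genotypes, but the change had no call (0.85, SE 0.569, adjusted p = 0.32). In cTECs Dll3 had 1 count over the control libraries and 7 over the deficient ones.

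**Figure D3:**
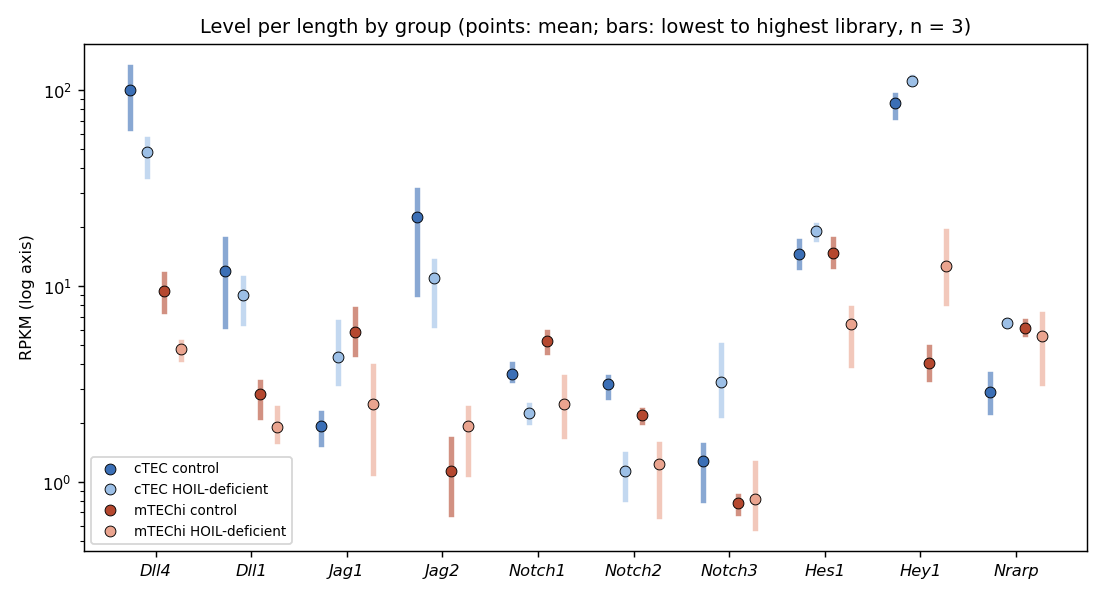
Level per length in RPKM (log axis) of the 10 genes in the 4 groups; points are means and bars run from the lowest to the highest of 3 libraries. Dll4 and Hey1 lead in control cTECs at 100.1 and 86.5 RPKM, while Hes1 leads in control mTEChi at 14.8.

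Among the receptors, Notch1 and Notch2 were lower without HOIL in every library of both cell types, with 1 call each. Notch1, the receptor that reads Dll4 on T cell progenitors, had 38.1, 31.6 and 31.6 CPM in control cTECs and 19.3, 21.2 and 23.6 in deficient cTECs. That change of -0.75 did not pass (SE 0.242, adjusted p = 0.058) and had an adjusted p of 0.043 with DESeq2. Thymocyte markers fell in 16 of 21 cases in the same cTEC libraries, and their part in the Notch1 values was not tested. In mTEChi Notch1 had 51.0, 43.6 and 55.2 CPM in controls and 16.3, 22.4 and 32.6 without HOIL, and it fell (log2 fold change -1.14, SE 0.242, adjusted p = 0.0057), a call that held under all 14 alternatives run. The 2 effects differed by -0.39 (SE 0.34, adjusted p = 0.5). Control mTEChi had more Notch1 than control cTECs by 0.66 (SE 0.24, adjusted p = 0.026), a call lost without control cTEC replicate 2 (adjusted p = 0.076) or 3 (0.089) and without control mTEChi replicate 1 (0.068) or 3 (0.086). Notch1 (Entrez 18128, chr2:26457902-26503822) overlaps the counted gene 0610009E02Rik, which had 21.2 ± 4.37 CPM (SD, n = 3) in control mTEChi and 7.23 ± 2.99 in deficient mTEChi, so there too the reads in the overlap cannot be told apart.

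Notch2 had 28.5, 36 and 35.4 CPM in control cTECs and 14.6, 8.61 and 12.8 without HOIL. The groups were far apart, and Notch2 fell (log2 fold change -1.56, SE 0.311, adjusted p = 0.0061), under all 14 alternatives run. In mTEChi its levels were 24.5, 23.8 and 21.3 CPM in controls and 16.5, 15.4 and 7.08 without HOIL. These did not overlap, but the change of -0.91 missed the threshold (SE 0.308, adjusted p = 0.052) and passed with RLE scaling (0.036), upper-quartile scaling (0.036), limma-voom (0.025) and DESeq2 (0.013). The difference of the effects was 0.66 (SE 0.433, adjusted p = 0.36). Notch2 (Entrez 18129, chr3:98013538-98150367) differed by -0.42 between the control cell types (SE 0.302, adjusted p = 0.23) and by 0.23 between the deficient ones (SE 0.309, adjusted p = 0.56), neither a call.

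Notch3, the receptor known from pericytes, had the opposite sign in cTECs. It had 12, 6.42 and 12.3 CPM in controls and 17.4, 20.4 and 39.9 without HOIL, with replicate 3 the highest. The libraries did not overlap, and the log2 difference of 1.24 missed the threshold (SE 0.388, adjusted p = 0.052), while 6 of 14 alternatives gave a call, the fit without deficient replicate 1 among them (0.041; adjusted p of 0.013 to 0.24 over the 14). In mTEChi Notch3 was at 5.53, 6.72 and 6.36 CPM in controls and 4.64, 9.90 and 4.97 without HOIL (0.00, SE 0.399, adjusted p = 1). Of the 16 fibroblast and pericyte markers, 10 rose and 0 fell in cTECs (median log2 change 1.94), and 6 rose and 0 fell in mTEChi (median 1.04); their part in the Notch3 values was not tested. Notch3 (Entrez 18131, chr17:32120820-32166896) was lower in deficient mTEChi than in deficient cTECs (-1.87, SE 0.397, adjusted p = 0.0013), and in controls the difference was -0.63 (SE 0.396, adjusted p = 0.18).

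The summed level of the 3 receptors was 8.02 ± 0.392 RPKM in control cTECs, 6.65 ± 1.80 in deficient cTECs, 8.25 ± 0.485 in control mTEChi and 4.56 ± 0.624 in deficient mTEChi (SD, n = 3). Its make-up in cTECs differed between the genotypes. Notch3 held 10.7 to 18.8% of the sum in control cTECs and 39.1 to 57.5% in deficient cTECs, and Notch2 33.0 to 45.3% and 14 to 24.7%. In mTEChi Notch1 held the largest share of the 3, with 59.7 to 67.3% in controls and 44.4 to 72.6% without HOIL. Notch4, described below, is not in this sum. It had 1.14 ± 0.174 RPKM in control mTEChi and 2.01 ± 0.933 in deficient mTEChi. In the latter its libraries (0.941 to 2.66) overlapped those of Notch1 (1.72 to 3.44). In cTECs Notch4 had 0.258 ± 0.155 RPKM in controls and 1.17 ± 0.454 without HOIL.

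The 3 target genes did not move together. Hes1, a repressor that many Notch-responsive cells switch on, had 24.8, 18.1 and 20.7 CPM in control cTECs and 27.7, 29.8 and 25.4 in deficient cTECs, all above the controls but without a call (0.29, SE 0.268, adjusted p = 0.54). In mTEChi it had 20.9, 18.3 and 25.2 CPM in controls and 5.72, 11.3 and 10.8 without HOIL. Hes1 fell there (log2 fold change -1.28, SE 0.276, adjusted p = 0.0063), a call that held under all 14 alternatives run. The HOIL effect in mTEChi minus that in cTECs was -1.57 (SE 0.384, adjusted p = 0.022), and this lost its call without control cTEC replicate 2 (adjusted p = 0.05) or 3 (0.054) and without control mTEChi replicate 3 (0.059). Hes1 (Entrez 15205, chr16:30065357-30067796) had no detected difference between the control cell types (0.11, SE 0.269, adjusted p = 0.72) and lower in deficient mTEChi than in deficient cTECs (-1.46, SE 0.276, adjusted p = 0.00057).

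Hey1, a HEY family repressor, was far higher in cTECs than in mTEChi and rose without HOIL in mTEChi. Control mTEChi had 10.9, 7.45 and 8.45 CPM and deficient mTEChi 18.2, 42.0 and 23.8, with replicate 2 the highest. The groups did not overlap, and Hey1 rose (log2 fold change 1.57, SE 0.271, adjusted p = 0.0019), under all 14 alternatives run. In cTECs it had 162, 202 and 209 CPM in controls and 239.9, 243 and 259 without HOIL, again without overlap but with no call (0.29, SE 0.248, adjusted p = 0.51). The difference of the effects was 1.29 (SE 0.366, adjusted p = 0.041), but 15 of 20 alternatives lost that call, with values of 0.88 to 1.51 and adjusted p of 0.022 to 0.1. It held with DESeq2, with no low-count filter and on leaving out control replicate 1 of either cell type or deficient mTEChi replicate 1, and was lost on leaving out any other library (0.055 to 0.1). Hey1 (Entrez 15213, chr3:8663359-8667038) was lower in mTEChi than in cTECs, with a log2 difference of -4.31 in controls (SE 0.292, adjusted p = 3.4e-08) and -3.02 without HOIL (SE 0.27, adjusted p = 6.3e-07). Endothelial cells also express Hey1, and the endothelial marker sum was 137 to 185 CPM in control and 334 to 889 in deficient mTEChi. The sum of the cTEC markers was 2752 to 3280 CPM in control and 3365 to 4585 in deficient mTEChi. The part of either in the Hey1 change was not tested.

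Nrarp, a feedback inhibitor that lowers the amount of Notch intracellular domain, rose without HOIL in cTECs. It had 7.28, 9.19 and 5.89 CPM in controls and 16.6, 17.2 and 16.7 in deficient cTECs, with narrow spread in the latter (16.8 ± 0.330, SD, n = 3). The log2 fold change was 1.09 (SE 0.307, adjusted p = 0.034). This call was lost with males only (adjusted p = 0.085) and on leaving out any 1 of the cTEC libraries but control replicate 2 (adjusted p of 0.065 to 0.13), within 0.0031 to 0.13 over the 14 alternatives. In mTEChi Nrarp was at 14.7, 17.1 and 15.4 CPM in controls and 8.29, 18.6 and 16.1 without HOIL, overlapping (-0.20, SE 0.299, adjusted p = 0.69). The difference of the effects was -1.29 (SE 0.428, adjusted p = 0.071). Nrarp (Entrez 67122, chr2:25180758-25183339) was higher in control mTEChi than in control cTECs by 1.17 (SE 0.308, adjusted p = 0.0043), and the deficient cell types differed by -0.12 (SE 0.298, adjusted p = 0.78).

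**Figure D4:**
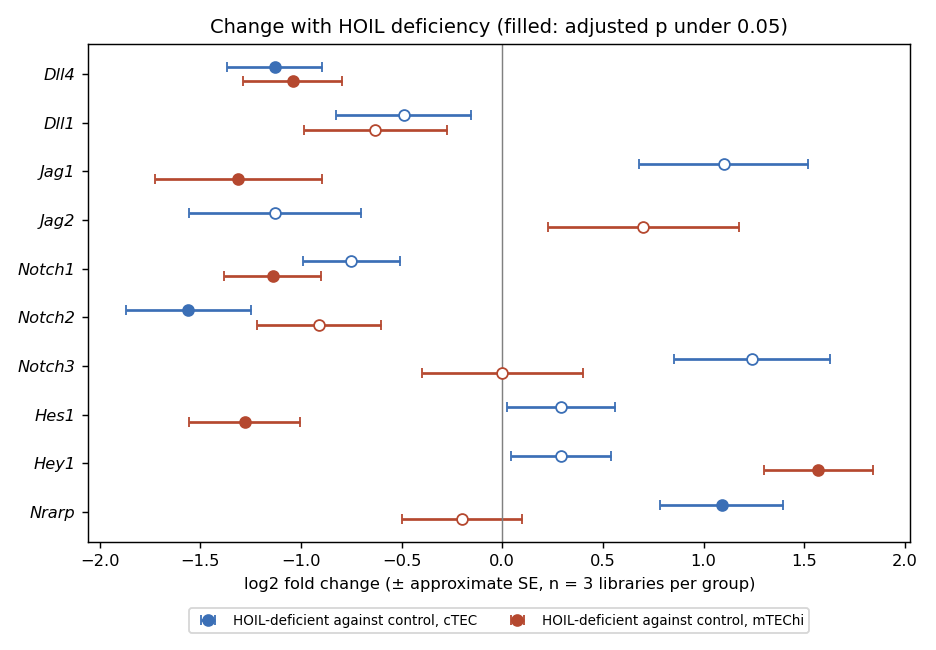
Log2 fold change of the 10 genes, HOIL-deficient against control, in cTECs and in mTEChi, with bars of 1 approximate standard error from the fit over 12 libraries (3 per group); filled points have an adjusted p under 0.05. Dll4 lies near -1 in both cell types, and Jag1 is at 1.10 in cTECs and -1.31 in mTEChi.

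Per length, the order of the 10 genes differed between the groups. In control cTECs Dll4 and Hey1 (86.5 ± 11.4 RPKM, SD, n = 3) came first and overlapped, and Jag1 and Notch3 (1.29 ± 0.416) came last. Without HOIL the cTEC order began with Hey1 at 112 ± 4.61 RPKM, then Dll4 at 48.7 ± 10.8 and Hes1 at 19.1 ± 1.52, with no overlap between these neighbours. In control mTEChi Hes1 came first with 14.8 ± 2.41 RPKM and Dll4 second with 9.48 ± 2.02. Nrarp (6.09 ± 0.464), Jag1 (5.86 ± 1.59), Notch1 (5.26 ± 0.616) and Hey1 (4.04 ± 0.794) followed there, each overlapping its neighbour. In HOIL-deficient mTEChi Hey1 came first with 12.7 ± 5.66 RPKM, above Hes1 (6.39 ± 2.13), Nrarp (5.55 ± 2.08) and Dll4 (4.80 ± 0.483), which overlapped one after the other.

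Of 47 other genes of the pathway, 46 passed the filter on low counts, all but Hes5. In cTECs 3 of the 46 rose and 4 fell without HOIL (6.06 and 6.02% of all genes), with a median log2 change of -0.03, or -0.04 over the 44 genes above the floor of 3 counts over a group in at least 1 of the groups. In mTEChi 4 rose and 3 fell (11.3 and 8.59% of all genes), with a median of 0.1. Those that rose in cTECs were the receptor Notch4, the fringe glycosyltransferase Mfng, which modifies receptors, and the repressor Hey2. Hey2 had 3.68, 7.68 and 7.75 CPM in controls and 16.6, 21.1 and 28.6 without HOIL (log2 fold change 1.71, SE 0.367, adjusted p = 0.009). Notch4 had 1.57, 0.756 and 2.79 CPM in controls and 7.10, 11 and 5.05 without HOIL (2.07, SE 0.513, adjusted p = 0.019), and its call was lost with limma-voom (adjusted p = 0.05) and without control replicate 2 (0.063) or deficient replicate 2 (0.067). Notch4 is known from endothelium, whose markers rose in the same libraries, as given above; their part was not tested. Mfng (1.16, adjusted p = 0.038) lost its call in 9 of 14 alternatives, among them the fits without each cTEC library but control replicate 1 (adjusted p of 0.05 to 0.15).

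Genes that fell in both cell types were Ep300, an acetyltransferase recruited by the Notch complex, and Spen, a corepressor bound by RBPJ. Spen had 27.4, 26.6 and 33.0 CPM in control cTECs and 10.9, 12.7 and 17.5 without HOIL (-1.17, SE 0.229, adjusted p = 0.0056), and 26.9, 30.9 and 22.7 against 12.9, 14.3 and 14.6 in mTEChi (-1.01, SE 0.228, adjusted p = 0.0082). No library of the deficient groups reached a control of its cell type. Ep300 fell by 0.99 in cTECs (adjusted p = 0.009) and by 0.8 in mTEChi (adjusted p = 0.017), the latter not with males only (0.064) or without deficient replicate 2 or 3 (0.055 each). Dtx1 and Dtx3, members of the Deltex family of Notch regulators, fell in cTECs and had no call in mTEChi, and their difference between cell types was not a call (adjusted p = 0.14 and 0.21). Dtx1, which thymocytes also express, had 6.63, 9.32 and 12 CPM in control cTECs and 1.89, 0 and 2.04 without HOIL (-2.89, SE 0.68, adjusted p = 0.015; 0.068 with the cTEC libraries alone). Thymocyte markers fell in the same libraries, and their part in this was not tested. Dtx3 changed by -0.9 (SE 0.185, adjusted p = 0.0072).

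In mTEChi the genes that rose were Ncstn, a subunit of gamma-secretase, Numb, an inhibitor of Notch, Dtx2, and Hes6, an antagonist of Hes1. Ncstn had 37.5, 105 and 78.8 CPM in controls and 153, 145 and 146 without HOIL (0.96, SE 0.236, adjusted p = 0.012), and Hes6 139.7, 200.4 and 202 CPM against 407, 378 and 342 (1.00, SE 0.204, adjusted p = 0.0045). Control replicate 1, the library with 8.93% mitochondrial counts, was the lowest in both, and without it the calls of Ncstn and Hes6 held. Numb (1.27, adjusted p = 0.029) and Dtx2 (0.91, adjusted p = 0.018) lost theirs without that library (0.058 and 0.059), with males only (0.084 and 0.065), and without deficient replicate 1 (0.062 and 0.051) or 3 (0.085 and 0.082); Numb also without deficient replicate 2 (0.057), and Dtx2 without control replicate 3 (0.084). Fbxw7, a ubiquitin ligase subunit that marks the Notch intracellular domain for breakdown, fell by 0.87 (adjusted p = 0.029), and did not pass with males only (0.12) or without control replicate 1 (0.12) or 2 (0.058) or deficient replicate 1 (0.1) or 3 (0.086).

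**Figure D5:**
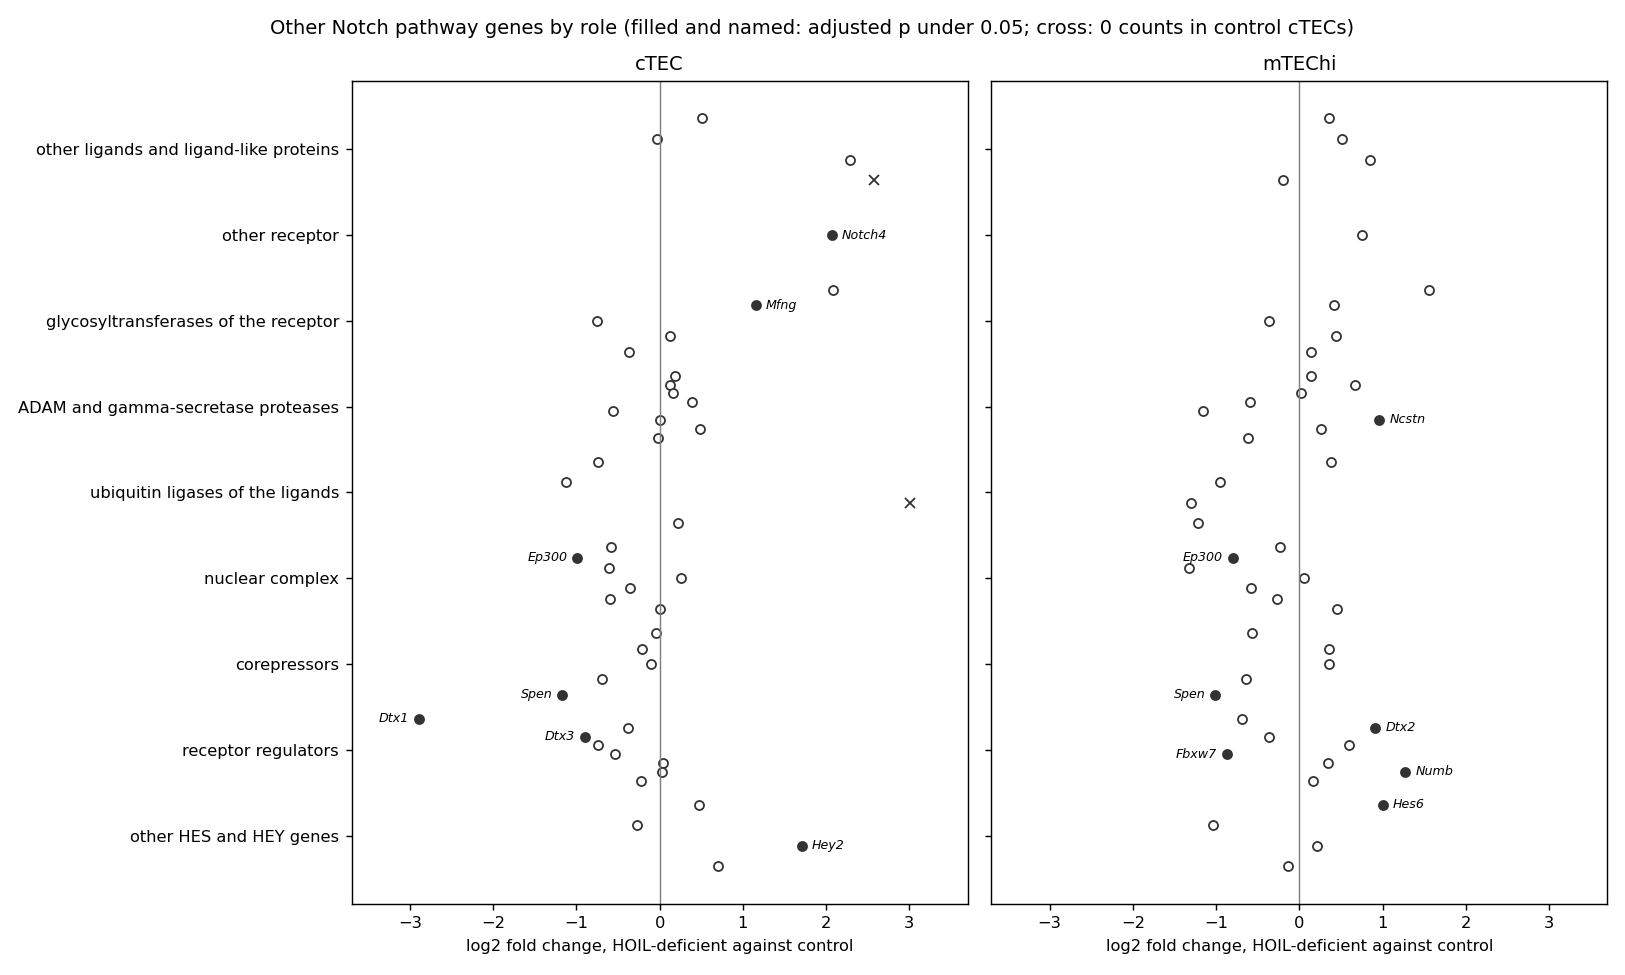
Log2 fold change without HOIL of the 46 other pathway genes tested, by role, in cTECs (left) and mTEChi (right) on the same axis; filled points have an adjusted p under 0.05 and are named, and crosses are 2 genes with 0 counts in control cTECs, whose fitted value depends on the prior count. Spen and Ep300 lie below 0 and are filled in both panels, and Dtx1 is at -2.89 in cTECs.

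Between the control cell types, 11 of the 46 genes were higher in mTEChi and 13 lower (37.8 and 26.4% of all genes), with a median of -0.01, which was the same with genes at 0 set to their bound. Without HOIL 12 were higher and 13 lower (32 and 16.4% of all genes). Dtx4, another Deltex gene, had 68.1, 155 and 128 CPM in control cTECs and 4.71, 3.41 and 3.01 in control mTEChi (-4.86, SE 0.389, adjusted p = 1.6e-07). Rbpj was higher in control mTEChi, with 59.6, 55.7 and 58.6 CPM against 26.9, 27.8 and 29.2 (1.15, SE 0.25, adjusted p = 0.0012). Mfng was higher there by 3.15 (adjusted p = 2.8e-06). The ligand-like protein Dlk1 was higher in control mTEChi by 4.57 (adjusted p = 0.00012) and its relative Dlk2 lower (-3.01, adjusted p = 2.3e-05). Neurl1a, a ubiquitin ligase that acts on ligands, and the ligand-like Dner had 0 counts in control cTECs, and were at least 189-fold and at least 50.7-fold higher in control mTEChi when set against 3 counts over the group (0.105 CPM).

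The genes whose pattern over the 12 libraries was most like that of Dll4, by Pearson r of log2 CPM among 10202 genes, were Ltbp3 (0.993), Tenm4 (0.991) and Cds1 (0.987). Those most like Jag1 were Cd2ap (0.893), Spry2 (0.888) and Pttg1 (0.885), and those most like Hes1 were Glrx (0.957), Rida (0.937) and Ski (0.913). The points of these correlations share cell type and genotype, so they describe the group pattern. Glrx, for example, had mean levels of 52.4 and 59.7 CPM in control and deficient cTECs and 41.6 and 16.4 CPM in control and deficient mTEChi.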

How the data were processed

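The data were RNA-seq counts per gene for 12 libraries, 3 in each of 4 groups. The deposited values are raw read counts per gene, made by the authors with featureCounts against mm10, per the submitters' processing notes; no aligner, annotation or strand setting was stated (not given in the sources used here). RNA was amplified with SMART-Seq v4 and made into Nextera XT libraries, per the labels' protocols. Entrez identifiers were matched to RefSeq GRCm38.p6, where 25275 of 27179 had a symbol; the 1904 without one held 4.53 to 6.1% of counts and stayed in library totals and tests.

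Groups were taken from the labels. edgeR 4.0.16 in R 4.3.3 was used with TMM scaling, filterByExpr and robust quasi-likelihood fits of all 12 libraries with 1 coefficient per group; p-values were Benjamini-Hochberg adjusted over 19398 genes and called under 0.05, in 5 comparisons. SE is the log2 fold change over the root of F, an approximation. CPM used library totals and RPKM the counted length. The likeness measure used log2 CPM with a prior count of 2 and genes with a mean of at least 3. The script was tested on simulated data. Alternatives were RLE and upper-quartile scaling, no low-count filter, DESeq2 1.42.0, limma-voom (limma 3.58.1), males only, fits within a cell type, a replicate block and leaving out each library. The genes named were the 10 Notch genes, the targeted gene Rbck1, pathway genes called in a comparison and the 3 genes most like Dll4, Jag1 and Hes1; the genes overlapping Dll4 and Notch1 were named after their values were seen. Results for 1 gene of the pathway list are not reported here. The genes and lists were chosen with earlier results of these data known. The authors' table for the whole series was not used here.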

Additional observations from a re-analysis of the deposited data

Results flagged for a closer look

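The interaction test, which asks whether the HOIL effect in mTEChi differs from that in cTECs, singled out 3 of the 10 Notch genes, beside 9.84% of all genes tested. Jag1 had a difference of -2.41 on the log2 scale (edgeR adjusted p = 0.022): its 3 deficient cTEC libraries were above and its 3 deficient mTEChi libraries below their controls. Hes1 had a difference of -1.57 (adjusted p = 0.022), with the same order of libraries. Hey1 had a difference of 1.29 (adjusted p = 0.041), with all deficient libraries above their controls in both cell types. These orders are in CPM, without the TMM scaling that the test used. Of 20 alternatives, 2 lost the call of Jag1, 3 that of Hes1 and 15 that of Hey1.

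Among the 46 other pathway genes the same test singled out Dtx2 at 1.29 (adjusted p = 0.031). This call was lost with RLE scaling (adjusted p = 0.054) and upper-quartile scaling (0.056), and in 12 of 20 alternatives in all (adjusted p up to 0.099).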

How the results depend on the processing

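Over 760 recomputed values of the 10 Notch genes, 706 kept their direction or had no call on either side, 37 lost a call, 17 gained one and 0 called values changed sign. Of 902 values of called pathway genes, 817 kept their call and 85 lost it. Rbck1 kept its call in all 28. DESeq2 called 6 of the 10 genes in cTECs in place of 3, 12 pathway genes in mTEChi in place of 7, as did limma-voom (12), and 2 pathway genes in place of 1 for the difference between the effects. With the mTEChi libraries alone 14 pathway genes were called. Males only gave 1540 genes in cTECs in place of 2342, 3 of the 10 genes and 4 pathway genes in mTEChi, and for the difference between the effects 1030 genes in place of 1909, 1 of the 10 genes in place of 3 and 0 pathway genes in place of 1. The cTEC libraries alone gave 1395 genes. RLE and upper-quartile scaling each gave 0 pathway genes for the difference, where edgeR with TMM gave 1; among all calls, the share that was higher went from 56.8% to 47 and 46.3% in mTEChi and from 60.7% to 45 and 42% for the difference. These scalings moved the median of all genes by -0.14 and -0.16 for the difference and by 0.19 and 0.17 between the control cell types. The cause of these differences was not tested.

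Leaving out 1 library gave 1340 to 2306 genes in cTECs and 2 to 3 of the 10, 1944 to 3116 genes in mTEChi (3858 with all libraries) and 4 to 5 of the 10, and 949 to 2088 genes for the difference and 1 to 4 of the 10. Pathway genes then numbered 5 to 9 in cTECs, 4 to 6 in mTEChi and 0 to 4 for the difference. The cTEC count moved by over 1.5 times without control replicate 3 (1340) or deficient replicate 2 (1445), and the mTEChi count without control replicate 1 (1944) or 3 (2279) or deficient replicate 1 (2558) or 2 (2343). For the difference this held without control cTEC replicate 3 (1256), control mTEChi replicate 1 (1172) or 3 (949), or deficient mTEChi replicate 3 (1182). Between the control cell types it gave 11449 to 12351 genes, and between the deficient ones 8507 to 8988.

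Deviations of samples with the same replicate number correlated at -0.16, -0.116 and 0.00689 between genotypes in cTECs and at -0.0787, -0.0213 and -0.0626 in mTEChi. Between the cell types the same-number correlations were 0.000351, 0.098 and -0.0367 in controls and 0.0494, 0.0781 and 0.0348 without HOIL, where every sample correlated best with its own number, a hint from the data and not from the labels. No comparison had every pair over 0.1, so the numbers were not taken to pair the samples. With a replicate block the genes called were 1797 in cTECs, 3288 in mTEChi, 1484 for the difference, 12088 between the control cell types and 8886 between the deficient ones, the pathway genes for the difference were 0, and of the 10 genes Hey1 lost its call for the difference (1.23, adjusted p = 0.072).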
